A study of Mus musculus with 6 samples.

Results

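The genes described here are 9 genes of the glucocorticoid and metallothionein responses, Fkbp5, Tsc22d3, Sgk1, Zbtb16, Cdkn1a, Mt1, Mt2, Nr3c1 and Hsd11b1. They were picked out by gene symbol among the 47729 genes of the deposited files. The 9 genes and the related lists below were chosen with earlier results of these data known. All 9 passed the filter on low counts that left 17668 genes for testing. RNA-Seq was performed on brown adipose tissue (BAT) of wild type C57BL/6J male mice fed either a low-fat diet (LFD, a standard rodent chow, n = 3 mice) or a 45% high-fat diet (HFD, n = 3 mice) from 6 to 10 weeks of age. The right-side interscapular depot was taken, and the mice sequenced were those with the most, the middle and the least fat mass of each diet group, without a statement of which replicate number is which. The diets came from different makers, so the HFD-fed mice differ from the LFD-fed mice in more than the share of fat. The question asked of these genes was whether their levels differed with diet.

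Glucocorticoids are adrenal steroid hormones that enter cells and bind the glucocorticoid receptor, encoded by Nr3c1, which is held ready by heat shock protein chaperones. The bound receptor moves to the nucleus and turns on genes such as Fkbp5, Tsc22d3, Sgk1 and Zbtb16, and the FKBP5 protein in turn lowers the affinity of the receptor for hormone. Metallothioneins are small cysteine-rich proteins that bind zinc and copper, and their genes respond both to metals, through the factor MTF1, and to glucocorticoids. In adipose tissue the hormone is also made locally from its inactive form by the enzyme that Hsd11b1 encodes.

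The samples were checked against markers before the genes were compared. Markers of brown adipocytes were present in every mouse. Ucp1, the uncoupling protein that defines them, was at 2728, 4021 and 796 TPM in HFD-fed mice. In LFD-fed mice it was at 443, 11.0 and 76.0 TPM, so LFD mouse 2 held little of it. The sum of 8 brown adipocyte markers was 4993, 6309 and 1591 TPM in HFD-fed mice and 1729, 437 and 258 TPM in LFD-fed mice. That sum overlapped between diets and was lowest in LFD mouse 3. Of the 8, 7 had fold changes above 0 and 1 below, with a median log2 fold change of 1.68. The summed level of 10 skeletal muscle markers was 41.5, 182 and 7.09 TPM in HFD-fed mice and 5324, 12561 and 1795 TPM in LFD-fed mice. All 10 muscle markers were lower in HFD-fed mice with no overlap, with a median log2 fold change of -6.25. Summed fibroblast markers reached 25857 TPM in LFD mouse 3, against 1654 to 8637 TPM in the other mice, and summed adipocyte markers were 21902 and 22150 TPM in LFD mice 1 and 2 and 4648 to 6978 TPM in the other mice. Markers of T and NK cells were higher in every HFD-fed mouse, summing to 8.55 to 29.3 TPM against 0.69 to 4.75 TPM, whereas those of macrophages overlapped between diets (395 to 3468 TPM). Endothelial, B cell and red cell markers also overlapped. In bulk tissue, fewer cells of a type and less RNA per cell cannot be told apart, and the part of cell makeup in the differences below was not tested. Total rounded counts were 17156991 to 21603487 per mouse, and mitochondrial genes took 3.87% to 22.7% of them.

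**Figure D1:**
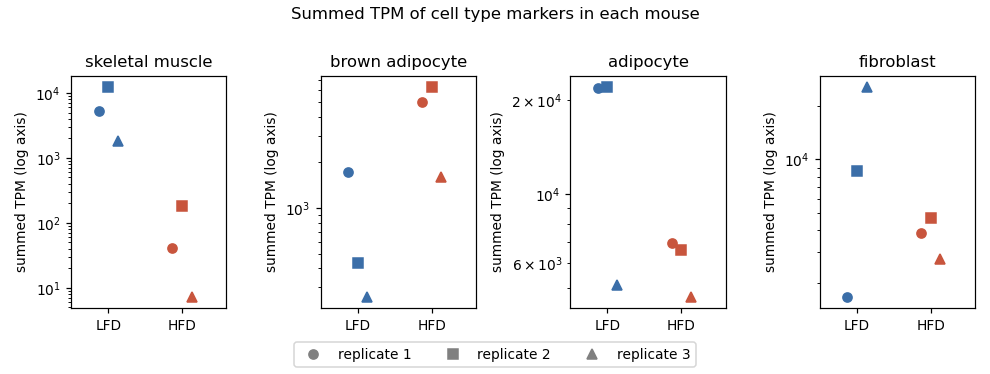
Summed TPM of the marker genes of 4 cell types in each mouse, on a log axis, with 1 symbol per mouse. Muscle markers separate the diets (7.09 to 182 TPM in HFD, 1795 to 12561 TPM in LFD), and fibroblast markers are highest in LFD mouse 3 (25857 TPM).

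Most of these genes had lower levels in HFD-fed mice. Fkbp5 was 4.77-fold lower, Zbtb16 3.86-fold lower, Mt2 2.62-fold lower and Mt1 1.84-fold lower, and for each of these 4 genes every HFD-fed mouse lay below every LFD-fed mouse, as for 9.23% of all genes tested. Cdkn1a, a cell cycle inhibitor, was 1.74-fold higher, while the receptor gene Nr3c1 and the kinase gene Sgk1 differed by less than their standard errors. The thresholds of the study are 0.01 for the adjusted p and 1.5 for the size of the log2 fold change, and the study applied them with DESeq2. By edgeR, the main test here, none of these differences passed them. By edgeR's quasi-likelihood test with Benjamini-Hochberg adjustment over all genes tested, 0 of the 9 genes were called, where 0.0% of all genes were called (0 of 17668). At an unadjusted p under 0.05 there were 6 of the 9, with 5 lower and 1 higher. Of all genes, 10.5% passed, 6.62% lower and 3.86% higher. Because the genes were chosen with earlier results known, such counts beside all genes are a description and not a test. DESeq2, the program the study used, called 2 of the 9 at the same thresholds, Fkbp5 and Zbtb16, where it called 2.03% of all genes. The test by limma on log2(TPM + 1) called 0, where it called 0.00566% of all genes. The median log2 fold change of the 9 genes was -0.88, beside -0.048 over all genes tested.

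**Figure D2:**
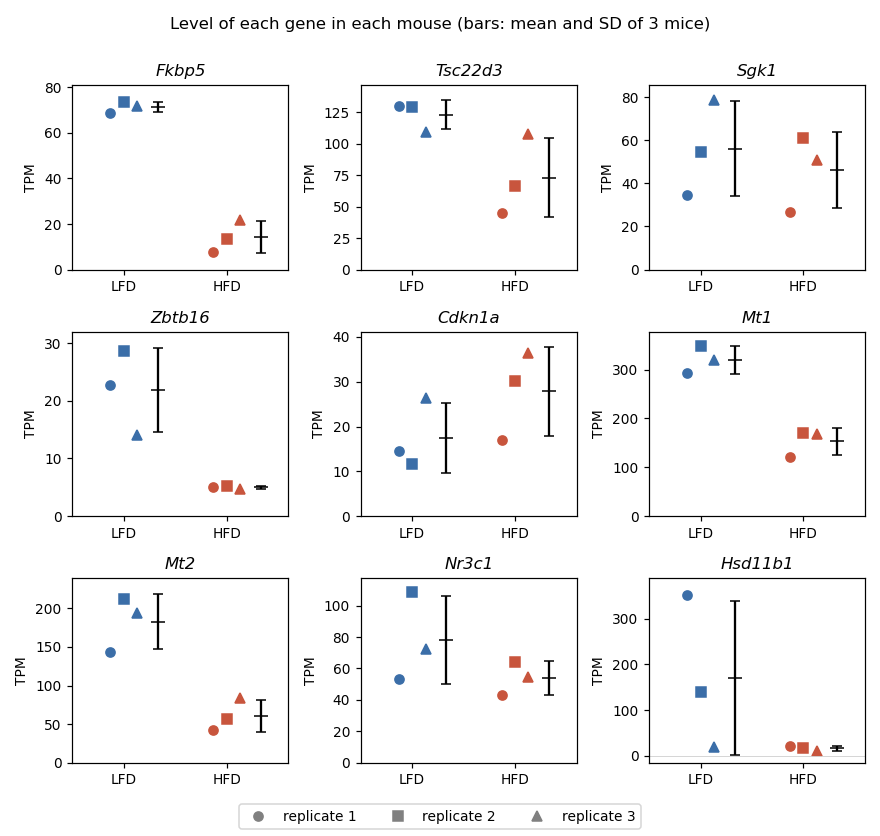
Level of each of the 9 genes in TPM (transcript abundance scaled for gene length and library size) in each mouse, with 1 symbol per mouse and the mean and SD of 3 mice beside them. Fkbp5 lies between 68.81 and 73.41 TPM in LFD-fed mice and between 7.67 and 21.57 TPM in HFD-fed mice, and Hsd11b1 spreads from 19.25 to 353.12 TPM within LFD.

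Fkbp5 (ENSMUSG00000024222, GRCm38 chr17:28399094-28517527, minus strand) encodes the immunophilin that dampens the glucocorticoid receptor, and its transcript is a common readout of receptor activity. It was measured at 7.67, 13.38 and 21.57 TPM in HFD mice 1, 2 and 3 and at 68.81, 73.41 and 71.94 TPM in LFD mice 1, 2 and 3. In TPM the LFD values lay close together (71.4 ± 2.35 TPM, SD, n = 3), whereas in log2 CPM, which are counts scaled to library size with TMM normalization as in the test, LFD mouse 1 (7.50) lay above LFD mice 2 and 3 (6.66 and 6.64). On both scales the highest HFD value was below the lowest LFD value. The log2 fold change was -2.25 (SE 0.35, unadjusted p = 0.00042, adjusted p = 0.17, edgeR quasi-likelihood test), at rank 18 of the 17668 genes by p. Under DESeq2 the log2 fold change was -2.26 with an adjusted p of 1.15e-05.

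Fkbp4, the related immunophilin that favours receptor activity, was at 52.03, 75.04 and 72.09 TPM in HFD-fed mice and 83.61, 63.68 and 63.92 TPM in LFD-fed mice, and these ranges overlapped. The ratio of Fkbp5 to Fkbp4 within each library was 0.147, 0.178 and 0.299 in HFD-fed mice and 0.823, 1.15 and 1.13 in LFD-fed mice. The ratio does not depend on the scaling between libraries, and the diets did not overlap in it. Its log2 difference was -2.36, with a two-sided p of 0.1 in an exact permutation test, which is the smallest p that 3 mice against 3 can give. With the p-values of the other ratios tested, the family held 3 ratios, so none could pass an adjustment.

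Zbtb16 (ENSMUSG00000066687, chr9:48654297-48836222, minus strand) encodes PLZF, a zinc finger repressor that glucocorticoids induce in many cell types. Its level was 5.03, 5.17 and 4.73 TPM in HFD-fed mice and 22.83, 28.69 and 14.09 TPM in LFD-fed mice. The HFD values were nearly equal, the LFD values spread by more, and the diets did not overlap. Its log2 fold change was -1.95 (SE 0.46, unadjusted p = 0.0042, adjusted p = 0.212 by edgeR), and DESeq2 gave an adjusted p of 0.0095.

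Tsc22d3 (ENSMUSG00000031431, chrX:140539528-140600659, minus strand) encodes GILZ, a glucocorticoid-induced leucine zipper protein that restrains inflammatory signalling. It was at 45.24, 66.47 and 107.51 TPM in HFD-fed mice and 130.1, 129.26 and 109.38 TPM in LFD-fed mice. The diets were separated in TPM only by the small gap between HFD mouse 3 and LFD mouse 3, and they overlapped in log2 CPM. The log2 fold change was -0.67 (SE 0.37, unadjusted p = 0.118, adjusted p = 0.613 by edgeR). Without LFD mouse 1 the log2 fold change was -0.26 (unadjusted p = 0.391) and without LFD mouse 3 it was -0.90 (unadjusted p = 0.043), the 1 alternative of 14 with a p under 0.05.

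Sgk1 (ENSMUSG00000019970, chr10:21882184-21999903, plus strand) encodes a serum- and glucocorticoid-regulated kinase that acts on ion channels and transporters. It was measured at 26.77, 60.88 and 50.91 TPM in HFD-fed mice and 34.72, 54.75 and 78.81 TPM in LFD-fed mice, with wide overlap. Sgk1 had a log2 fold change of -0.065 (SE 0.22, unadjusted p = 0.776 by edgeR), and its sign turned when HFD mouse 1 (0.053) or LFD mouse 3 (0.055) was left out. Sgk1 is shown by sequence since the palindromic glucocorticoid response element, the binding motif of the receptor spelled AGAACA, then 3 bases of any kind, then TGTTCT, was found upstream of 1 of its 6 start sites and in no other window of these genes. The 250 bases before each start were searched on both strands, in RefSeq promoters of build GRCm38.p6, for 15 windows of 7 of the 9 genes. Nr3c1 and Zbtb16 were not searched. The window below lies at chr10:21993640-21993889 on the plus strand, with the match in capitals at 189 to 175 bases before the start, outside annotated exons.
Sgk1 promoter window: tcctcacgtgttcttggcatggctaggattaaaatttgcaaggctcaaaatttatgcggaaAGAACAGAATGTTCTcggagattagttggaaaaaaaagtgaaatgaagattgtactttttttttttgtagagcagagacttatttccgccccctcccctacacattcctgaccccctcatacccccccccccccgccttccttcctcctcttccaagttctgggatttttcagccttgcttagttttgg
The palindrome is in 3 of 32841 promoters (0.00913%), and its half-site AGAACA, which it contains on both strands, is in 16.1%. A match is a description of the letters and not a bound site. Only exact copies in the 250 bases before each start were searched, so elements with other letters or at other places would be missed. By log2 fold change, the level of Sgk1, the gene with this match, was the least different between diets of the 9. The part of receptor binding in the level of any of these genes was not tested.

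Mt1 and Mt2 are neighbouring metallothionein genes on chromosome 8, with 5513 bases between the end of Mt2 and the start of Mt1. Mt1 (ENSMUSG00000031765, chr8:94179082-94180327, plus strand) was at 121.28, 171.08 and 167.86 TPM in HFD-fed mice and 292.16, 347.88 and 318.88 TPM in LFD-fed mice. By mean TPM it was the most abundant of the 9 genes in both diets, and no HFD-fed mouse reached the lowest LFD-fed mouse. The log2 fold change of Mt1 was -0.88 (SE 0.27, unadjusted p = 0.0149, adjusted p = 0.334 by edgeR). Mt2 (ENSMUSG00000031762, chr8:94172664-94173568, plus strand) was at 42.97, 56.22 and 83.65 TPM in HFD-fed mice and 142.81, 211.67 and 193.8 TPM in LFD-fed mice. The diets did not overlap for Mt2 either, and its log2 fold change was -1.39 (SE 0.24, unadjusted p = 0.00076, adjusted p = 0.17 by edgeR), at rank 74 of the genes tested. The antisense gene Gm45774, which is not among the genes of the files, covers 73.5% of the exon bases of Mt2, and reads of the pair cannot be told apart where counting does not use strand.

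The ratio of Mt2 to Mt1 within each library was 0.354, 0.329 and 0.498 in HFD-fed mice and 0.489, 0.608 and 0.608 in LFD-fed mice. HFD mouse 3 lay just above LFD mouse 1, so the diets overlapped in this ratio. Its log2 difference was -0.55 (p = 0.2, exact permutation test, two-sided). The upstream windows of both genes are shown for the core of the metal response element, TGCACNC or TGCGCNC on either strand, the motif that MTF1 binds. Capitals mark the core matches within these 250 bases, of which the Mt2 window has 3 and the Mt1 window has 1. Bases after each RefSeq start or further upstream were not searched, so these are not counts for either gene as a whole. The windows lie at chr8:94172368-94172617 and chr8:94178839-94179088, plus strand, in RefSeq promoters of GRCm38.p6. All 250 bases of the Mt2 window lie in annotated exons of Gm45774, and 7 bases of the Mt1 window lie in annotated exons of Mt1.
Mt2 promoter window: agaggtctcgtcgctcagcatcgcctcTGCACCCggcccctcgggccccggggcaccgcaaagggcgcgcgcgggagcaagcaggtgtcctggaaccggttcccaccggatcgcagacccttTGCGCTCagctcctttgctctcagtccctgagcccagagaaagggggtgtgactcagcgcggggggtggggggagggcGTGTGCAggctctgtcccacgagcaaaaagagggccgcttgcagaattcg
Mt1 promoter window: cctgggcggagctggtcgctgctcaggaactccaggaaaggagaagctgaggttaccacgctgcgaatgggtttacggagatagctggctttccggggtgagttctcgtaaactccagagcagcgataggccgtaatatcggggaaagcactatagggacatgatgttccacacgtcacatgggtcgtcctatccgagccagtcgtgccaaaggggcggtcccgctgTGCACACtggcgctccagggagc
At least 1 core match is in 21.4% of all promoters, and 3 or more are in 1.26%. Neither Mt window held the palindromic glucocorticoid response element or its half-site.

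Hsd11b1 (ENSMUSG00000016194, chr1:193221634-193264075, minus strand) encodes 11beta-hydroxysteroid dehydrogenase type 1, which regenerates active glucocorticoid inside adipocytes and hepatocytes. Its level was 19.99, 17.28 and 9.66 TPM in HFD-fed mice and 353.12, 140.07 and 19.25 TPM in LFD-fed mice. LFD mice 1 and 2 were far above all others, whereas LFD mouse 3 lay within the HFD values, so the diets overlapped. Hsd11b1 had a log2 fold change of -3.45 (SE 1.17, unadjusted p = 0.0228, adjusted p = 0.382 by edgeR), the largest of the 9 and the least precise. It was -1.78 (unadjusted p = 0.087) without LFD mouse 1 and -4.0 without LFD mouse 3. LFD mice 1 and 2 also had the highest summed adipocyte markers, and the part of this in the level of Hsd11b1 was not tested.

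Cdkn1a (ENSMUSG00000023067, chr17:29090976-29100727, plus strand) encodes p21, an inhibitor of cyclin-dependent kinases that both p53 and glucocorticoids can induce. It was at 16.92, 30.17 and 36.37 TPM in HFD-fed mice and 14.56, 11.55 and 26.36 TPM in LFD-fed mice. HFD mouse 1 lay below LFD mouse 3 in TPM, while in log2 CPM the diets did not overlap. For Cdkn1a the log2 fold change was 0.80 (SE 0.32, unadjusted p = 0.0432, adjusted p = 0.462 by edgeR), and the unadjusted p was above 0.05 in 7 of 14 alternatives. Cdkn1a was the gene of the 9 with a higher level in HFD-fed mice by fold change.

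Nr3c1 (ENSMUSG00000024431, chr18:39410545-39519421, minus strand) encodes the glucocorticoid receptor itself. It was at 43.23, 64.32 and 54.31 TPM in HFD-fed mice and 53.37, 108.51 and 72.49 TPM in LFD-fed mice, with overlapping ranges. Its log2 fold change was -0.27 (SE 0.31, unadjusted p = 0.407, adjusted p = 0.85 by edgeR). Nr3c2, the mineralocorticoid receptor gene, which also binds glucocorticoids, was at 2.42 to 6.59 TPM in HFD-fed and 3.09 to 7.20 TPM in LFD-fed mice. The log2 ratio of Nr3c2 to Nr3c1 differed by 0.10 between diets (p = 0.9, exact permutation test, two-sided), and its sign turned without HFD mouse 2 (-0.18) or LFD mouse 3 (-0.20).

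Over the 9 genes, the diets did not overlap in log2 CPM for 5, with 4 lower and 1 higher in HFD-fed mice, where this held for 15.9% of all genes tested (9.23% lower and 6.72% higher). In TPM they did not overlap for 5, all lower, where this held for 13.2% of all genes (11.6% lower and 1.65% higher). Fkbp5, Zbtb16 and Mt2 kept an unadjusted p under 0.05 in 14 of 14 alternatives, Mt1 in 12 and Hsd11b1 in 11, and Sgk1 and Nr3c1 in 0. The count of 6 genes at that p was 3 without HFD mouse 2 (6.18% of all genes) or without HFD mouse 3 (6.06% of all genes), and those 3 were Fkbp5, Zbtb16 and Mt2. Without LFD mouse 2, which held little Ucp1, the log2 fold changes were -2.40 for Fkbp5, -1.90 for Zbtb16, -1.38 for Mt2 and -0.94 for Mt1. Without LFD mouse 3, which was rich in fibroblast markers and had the lowest summed brown adipocyte markers, they were -2.40, -2.29, -1.52 and -1.05.

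**Figure D3:**
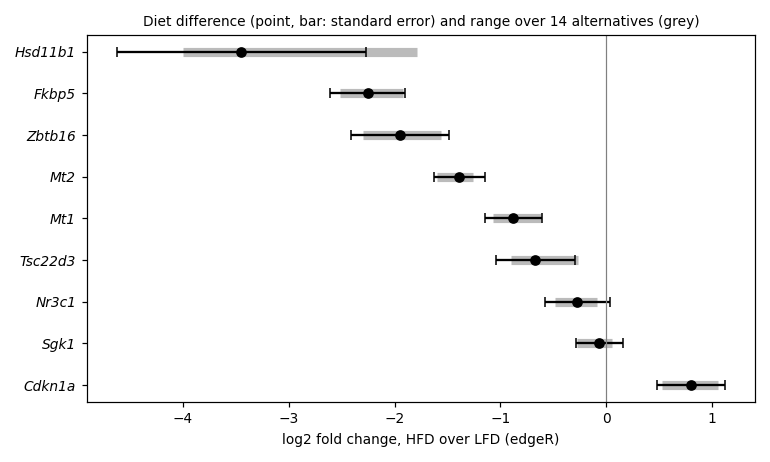
Log2 fold change of each gene, HFD over LFD, by edgeR (point) with its standard error (thin bar), and the range over 14 alternatives (grey band). Hsd11b1 has the widest band (-4.0 to -1.78), and the band of Sgk1 crosses 0 (-0.28 to 0.055).

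The same-numbered mice of the diets deviated together across genes, so the differences were also read by pair. The share of mitochondrial genes also fell with replicate number in both diets. It was 22.7%, 16.5% and 8.50% in HFD mice 1, 2 and 3 and 13.8%, 9.12% and 3.87% in LFD mice 1, 2 and 3. What the same-numbered mice have in common was not tested. In log2 CPM, HFD minus LFD, Fkbp5 differed by -3.05, -2.16 and -1.49 in the pairs numbered 1, 2 and 3. Zbtb16 differed by -2.04, -2.26 and -1.22 and Mt2 by -1.59, -1.70 and -0.86. The pair numbered 3 had the smallest difference for each of these genes. It also had the smallest for Mt1 (-0.58, against -1.13 and -0.82) and Hsd11b1 (-0.66, against -4.01 and -2.75), and Tsc22d3 was higher in HFD in that pair (0.29). With the replicate number as a block in the fit, 6 of the 9 genes had an unadjusted p under 0.05, where 17.5% of all genes did, and 0 were called.

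**Figure D4:**
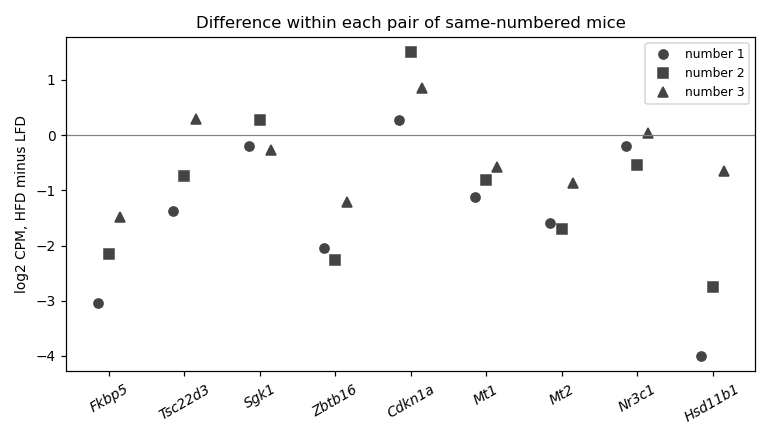
Difference in log2 CPM, HFD minus LFD, within each pair of same-numbered mice for the 9 genes, with 1 symbol per pair. All 3 pairs are below 0 for Fkbp5, Zbtb16, Mt1, Mt2 and Hsd11b1, and all 3 are above 0 for Cdkn1a.

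In both diets Mt1 had the highest mean TPM of the 9 genes, and the lowest was Cdkn1a in LFD-fed and Zbtb16 in HFD-fed mice. In LFD-fed mice the mean levels ran from Mt1 (320 ± 27.9 TPM, SD, n = 3) through Mt2, Hsd11b1, Tsc22d3, Nr3c1, Fkbp5, Sgk1 and Zbtb16 to Cdkn1a (17.5 ± 7.83 TPM). The ranges did not overlap between the neighbours Mt1 and Mt2, Tsc22d3 and Nr3c1, or Sgk1 and Zbtb16, and other neighbours overlapped. In HFD-fed mice Mt1 (153 ± 27.9 TPM) was again first, Fkbp5 was eighth (14.2 ± 6.99 TPM) and Zbtb16 was last (4.98 ± 0.225 TPM), and those 2 did not overlap.

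Across the 6 mice, the tested genes most like each of these were found by the root-mean-square difference of log2 CPM centred on the mean of all mice. The nearest to Fkbp5 were Fhl5 (0.33), Il1r2 (0.37) and E230001N04Rik (0.38), and Mt2 ranked 14th and Zbtb16 49th among all genes tested. The nearest to Zbtb16 was Slc22a18 (0.17), to Mt1 Hlcs (0.094), to Mt2 Xrra1 (0.12) and to Hsd11b1 Slc25a1 (0.32). The nearest to Cdkn1a were Dusp1 (0.15), Hsp90aa1 (0.16) and Cebpb (0.17). The neighbours Mt1 and Mt2 had a difference of 0.34 between them, below that of Fkbp5 and Mt2 (0.48) and of Fkbp5 and Zbtb16 (0.60), although Mt2 ranked only 1302nd among the genes nearest to Mt1.

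Among 20 other glucocorticoid-induced genes, 6 were lower and 3 higher in HFD-fed mice at an unadjusted p under 0.05, where 6.62% of all genes were lower and 3.86% higher, and 0 were called. The counts were 3 to 6 lower and 0 to 6 higher with 1 mouse left out, and 6 lower and 1 higher by limma on log2(TPM + 1), where 6.31% of all genes were lower and 1.68% higher. Their median log2 fold change was -0.18, beside -0.048 over all genes. Per1, a clock gene with a strong response to the hormone, was at 9.10, 11.76 and 15.33 TPM in HFD-fed mice and 22.13, 28.87 and 39.18 TPM in LFD-fed mice. The diets did not overlap, and its log2 fold change was -1.15 (SE 0.19, unadjusted p = 0.0006, adjusted p = 0.17 by edgeR). Klf9, a zinc finger factor, had a log2 fold change of -1.13 (adjusted p = 0.439), Cebpd, an adipogenic factor, of -0.87 (adjusted p = 0.315) and Sult1a1, a sulfotransferase gene, of -2.17 (adjusted p = 0.337). The opposite direction was seen in Pdk4, the pyruvate dehydrogenase kinase gene, named after its values were seen, with a log2 fold change of 1.99 (adjusted p = 0.409). Dusp1, a phosphatase gene that the hormone induces, was 0.65 higher on the log2 scale (unadjusted p = 0.052).

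**Figure D5:**
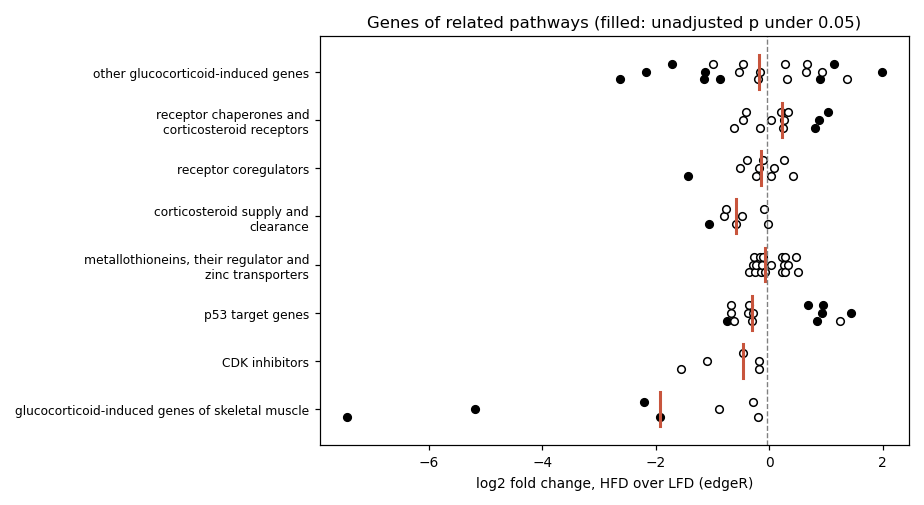
Log2 fold change, HFD over LFD, of each tested gene of 8 lists, with filled points at an unadjusted p under 0.05, a red bar at the median of the list and a dashed line at the median of all genes tested (-0.048). The glucocorticoid-induced genes lie on both sides of 0 (-2.63 to 1.99), and the metallothionein and zinc genes lie between -0.36 and 0.50.

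Of 12 genes for receptor chaperones and corticosteroid receptors, 3 were higher at an unadjusted p under 0.05 (3.86% of all genes) and 0 were lower (6.62% of all genes). They were the heat shock protein genes Hspa8 (log2 fold change 1.03), Hsp90aa1 (0.88) and Dnajb1 (0.80), with adjusted p-values of 0.438, 0.402 and 0.303 by edgeR. By limma on log2(TPM + 1) none of the 3 reached that p (unadjusted p = 0.252, 0.168 and 0.196), and the diets overlapped in TPM for each of them, so the higher levels depend on the scale. Of 10 coregulator genes, Nrip1, a corepressor of nuclear receptors, was lower (-1.43, adjusted p = 0.355), while Ncoa2, a coactivator gene, had a log2 fold change of -0.39 (unadjusted p = 0.0872).

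Corticosteroid supply and clearance was covered by 10 genes, of which 7 were tested. Srd5a1, which encodes a 5alpha-reductase, was low in all mice (0.33 to 1.88 TPM) and lower in HFD-fed mice (log2 fold change -1.07, adjusted p = 0.438). H6pd, whose product supplies the cofactor of the Hsd11b1 enzyme, was at 44.16, 60.03 and 55.10 TPM in HFD-fed mice and 105.86, 110.67 and 63.62 TPM in LFD-fed mice. The diets were separated in TPM but overlapped in log2 CPM, where LFD mouse 3 (7.14) lay below HFD mice 1 and 2 (7.50 and 7.26), and the log2 fold change was -0.80 (unadjusted p = 0.1, adjusted p = 0.578). Hsd11b2, which encodes the enzyme that inactivates the hormone, was at 0.16 to 0.85 TPM in all mice.

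The other metallothionein genes were near 0, with Mt3 at 0.36 to 1.44 TPM, under the filter, and Mt4 listed at 0 in every mouse. Of 26 genes for metallothioneins, MTF1 and zinc transporters, 19 were tested and 0 reached an unadjusted p of 0.05 by edgeR. Mtf1 had a log2 fold change of 0.33 (SE 0.21, unadjusted p = 0.156) and Slc30a1, the zinc exporter gene that MTF1 also induces, of 0.47 (SE 0.24, unadjusted p = 0.0927). Mt1 and Mt2 were lower in HFD-fed mice, while Mtf1 and Slc30a1 had fold changes above 0 that did not reach that p. Of the 19 tested genes, 10 had fold changes below 0 and 9 above. Slc30a2, a zinc transporter gene under the filter and named after its values were seen, was at 0, 0.02 and 0 TPM in HFD-fed mice. In LFD-fed mice it was at 0.52, 0.55 and 0.09 TPM. With DESeq2 or with no filter, 1 gene of the list was lower at that p. Whether the response to metals differed with diet was not tested.

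Of 14 p53 target genes, 5 were higher (3.86% of all genes) and 1 was lower (6.62% of all genes) at an unadjusted p under 0.05, with a list median of -0.30. By limma on log2(TPM + 1), 0 were higher and 1 was lower, and neither Plk2 (unadjusted p = 0.113), Btg2 (0.238), Mdm2 (0.212) nor Zmat3 (0.113) reached that p. Plk2, a polo-like kinase gene, had a log2 fold change of 1.44 (adjusted p = 0.315), Btg2, an antiproliferative gene, of 0.94 (adjusted p = 0.326) and Mdm2, the p53 ubiquitin ligase gene, of 0.93 (adjusted p = 0.35). Zmat3 was lower (-0.74, adjusted p = 0.268), and Ccng1 had a log2 fold change of -0.68 (unadjusted p = 0.182). Of the other CDK inhibitor genes, 5 were tested and all 5 had fold changes below 0, in contrast to Cdkn1a. At an unadjusted p under 0.05 there were 0 of the 5, but 2 with the replicate block, Cdkn2b (log2 fold change -1.60, unadjusted p = 0.0019) and Cdkn2c (-0.95, unadjusted p = 0.0074), and also 2 by limma on log2(TPM + 1).

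Glucocorticoid-induced genes of skeletal muscle were read beside the muscle markers. Of 7 such genes, 4 were lower at an unadjusted p under 0.05 (6.62% of all genes), with a median log2 fold change of -1.93. Trim63, which encodes a muscle ubiquitin ligase, was at 0.03, 0.25 and 0.09 TPM in HFD-fed mice and 9.53, 54.25 and 4.34 TPM in LFD-fed mice. Its order among LFD-fed mice, with mouse 2 highest and mouse 3 lowest, was that of the summed muscle markers. In TPM, Fkbp5 lay within 68.81 to 73.41 in LFD-fed mice where the muscle markers ranged from 1795 to 12561. In log2 CPM, Fkbp5 was higher in LFD mouse 1 (7.50) than in LFD mice 2 and 3 (6.66 and 6.64). Zbtb16 had the order of the muscle markers among LFD-fed mice in TPM (28.69 in mouse 2 and 14.09 in mouse 3), but in log2 CPM it was highest in mouse 1 (7.02, against 6.58 in mouse 2 and 5.37 in mouse 3). The part of muscle RNA in the levels of these genes was not tested.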

How the data were processed

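BAT of 3 LFD-fed and 3 HFD-fed mice was compared, grouped by the sample labels. Per the labels and the methods of the study, the authors trimmed adapters (Trimmomatic 0.36) from reads of 75 bases, sequenced from 1 end, and ran RSEM 1.3.0 against build GRCm38.p4. The authors deposited expected counts, which are not normalized, and TPM values, which are scaled for gene length and library. Strand use in counting was not given in the sources used here. Expected counts were rounded and tested in R 4.3.3 with edgeR 4.0.16 (quasi-likelihood, TMM, filter on low counts with a minimum of 10). DESeq2 1.42.0 and limma 3.58.1 on log2(TPM + 1) were alternatives, of which DESeq2 is the program the study used. The tests were tested on simulated data. Differences between mice of a diet exceeded counting noise (chi-square divided by its degrees of freedom, 71.7 to 558), so no library was repeated. The common dispersion was 0.201. Same-numbered mice deviated together across genes (r = 0.23 to 0.52, against -0.53 to 0.053 for other pairs), although no label says they were matched. Deviations were taken from the mean of the 3 mice of each diet, so a positive r for same-numbered mice by itself lowers that of other pairs.

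The 9 genes and the related lists were chosen with earlier results of these data known. In each list the genes named were up to 3 with the smallest p, and Per1, Klf9, Dusp1, Fkbp4, Nr3c2, Hsd11b2, H6pd, Mtf1, Slc30a1, Mt3, Mdm2 and Ccng1, and 1 gene that this rule names is not reported here. For each of the 9 genes, the 3 nearest genes could be named. Gene positions came from GENCODE on GRCm38, and promoter sequences from RefSeq on GRCm38.p6, where windows of 7 of the 9 genes were searched. Windows on chromosome 18, which holds Nr3c1, were left out of the search of the 9 genes, and no window of Zbtb16 was among those searched. No sequence of the other 2 genes was used here.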

Additional observations from a re-analysis of the deposited data

How the results depend on the processing

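With DESeq2 the number of the 9 genes called was 2, against 0 by edgeR. With a replicate block in the fit, 0 of the 9 were called and 6 had an unadjusted p under 0.05, where 17.5% of all genes did; Fkbp5 had a log2 fold change of -2.23 (adjusted p = 0.071), and the pairing changed no call at the thresholds of the study among the 9 genes. With the block, 31 of the 92 tested genes of the related lists had an unadjusted p under 0.05 (17.5% of all genes), against 24 without it (10.5% of all genes). Leaving out 1 mouse at a time gave 3 to 6 of the 9 genes at that p, with 3 without HFD mouse 2 or HFD mouse 3. It gave 12 to 28 genes of those lists. The number from the lists was 13 without HFD mouse 2 (6.18% of all genes) and 12 without HFD mouse 3 (6.06% of all genes). It was 13 without LFD mouse 2, where 814 of all genes were lower and 487 higher. It was 28 without LFD mouse 3, where 1741 were lower and 1405 higher. Fewer mice were then compared. With limma on log2(TPM + 1) it was 16, where 6.31% of all genes were lower and 1.68% higher, and the median of all genes moved to -0.18. Of all genes at an unadjusted p under 0.05, 1169 were lower and 682 higher by edgeR, 1114 and 296 by limma, and 1548 and 1546 with the block. The log2 difference of the Nr3c2 to Nr3c1 ratio was -0.20 to 0.38 with 1 mouse left out, and was -0.18 without HFD mouse 2 and -0.20 without LFD mouse 3. Signs also turned for Sgk1 (0.053 without HFD mouse 1 and 0.055 without LFD mouse 3), for Fkbp4 (-0.090 by limma, -0.084 without HFD mouse 1, -0.17 without LFD mouse 2 and -0.22 without LFD mouse 3, up to 0.59 without LFD mouse 1), for Nr3c2 (0.17 without LFD mouse 2, down to -0.49 without LFD mouse 3) and for Hsd11b2 (0.19 without HFD mouse 3 and 0.19 without LFD mouse 3, down to -0.42 without HFD mouse 1). The cause of these turns was not tested. At 3 mice per diet an exact test cannot give a p under 0.1, and the fitted p-values rest on a spread shared across genes.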
